A study of Mus musculus with 14 samples.

Results

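The genes described here are the DNA replication machinery: 42 genes that load the replicative helicase on origins, build and drive the replication fork, supply its nucleotides and rebuild chromatin behind it. They were chosen as a list of gene symbols, which were mapped to the Ensembl gene IDs of the deposited count table, and all 42 of 42 were found among its 47729 genes. RNA was sequenced in 14 libraries, each from a small sort of synovial cells, the cells of the joint lining, of mouse knees. All mice were of the C57BL6 strain and 16 weeks old. In antigen-induced arthritis (AIA), mice were immunized with mBSA (methylated bovine serum albumin), given with complete Freund's adjuvant, and later received mBSA into the joint. Non-immunized controls (NI) received phosphate buffered saline each time, and the joints were collected 10 days past the intra-articular dose. The sort took live cells without TER119, CD31 and CD45, which mark red, endothelial and white blood cells, and with CD51, the integrin alpha V chain. Libraries 1 to 4 are CD200+CD105- cells of non-immunized mice (NI CD200+), libraries 5 to 9 are CD200+CD105- cells of arthritic mice (AIA CD200+), and libraries 10 to 14 are CD200-CD105+ cells of arthritic mice (AIA CD105+), each from 200 to 500 cells. The series title calls these populations osteoprogenitors. CD105+ cells of non-immunized mice were not analysed here, and arthritis could be compared with its control only within the CD200+ phenotype. The labels do not say whether the libraries of a group came from separate animals, so p-values measure the spread between these samples, which may be technical.

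Before a cell divides it copies its genome once. In the G1 phase the origin recognition complex, Cdc6 and Cdt1 load the ring-shaped Mcm2 to Mcm7 helicase on DNA, a step called licensing. In S phase Cdc45 and the GINS complex switch the helicase on, primase and the replicative polymerases start and extend the new strands on the Pcna clamp, and nicks in the lagging strand are sealed. Most of these genes are transcribed periodically under E2F transcription factors and are low in resting cells, so their RNA is widely used to describe cycling cells.

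Total counts per library ranged from 12177437 to 40331071, of which 20.3% to 92.0% were ERCC spike-in RNA, leaving 2919666 to 18553803 counts on genes. Libraries 2, 5 and 6 held more than 80% spike-ins. Levels are given as CPM, the usual scaling of a gene's counts to a fixed total of gene counts, adjusted by the TMM method, and 3 counts in 1 library equal 0.162 to 1.03 CPM. A count was found for 20 to 42 of the 42 genes per library, with the fewest in libraries 6 (20 genes), 5 (24 genes) and 2 (27 genes), and for all 42 in each AIA CD105+ library. A 0 in a shallow CD200+ library is therefore not evidence of absence.

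AIA CD105+ libraries held far more replication RNA than either CD200+ group. The 42 genes together took 0.0854% to 0.101% of gene counts in NI CD200+, 0.0943% to 0.241% in AIA CD200+, and 1.17% to 1.90% in AIA CD105+ libraries. Their summed level was 1067, 912, 835 and 919.7 CPM in libraries 1 to 4. In libraries 5 to 9 it was 1416, 835, 1501, 2297 and 1383 CPM. In libraries 10 to 14 it was 19461, 11819, 17198, 14379.6 and 15688 CPM. Every AIA CD105+ library thus lay far above every CD200+ library. The ranges of the CD200+ groups overlapped only through library 6, at 835 CPM. It held 92.0% spike-ins, and libraries 2 and 5, at 912 and 1416 CPM, held 85.4% and 87.4%. The other AIA CD200+ libraries, at 1383 to 2297 CPM, lay above the highest NI CD200+ library, at 1067 CPM. The sums were not tested. The summed level of erythroid marker genes was also higher in AIA CD105+ libraries, at 29359.6 to 248705 CPM beside 47.1 to 10389.6 CPM in CD200+ libraries. Among AIA CD105+ libraries, library 10 was the highest in both sums. Library 12 had the lowest erythroid sum, beside 17198 CPM of replication genes. The erythroid markers include haemoglobin genes, which took 18.3% of gene counts in library 10 and 2.71% in library 12. The part of erythroid RNA in the higher replication RNA was not tested. In bulk samples, fewer cells of a type and less RNA per cell cannot be told apart.

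**Figure D1:**
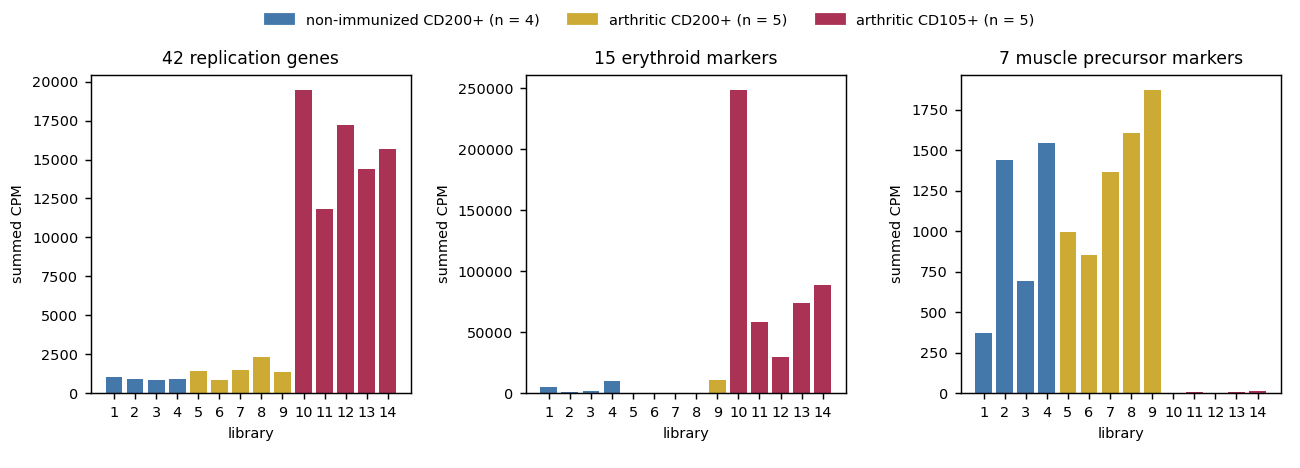
Summed level (CPM, linear axes from 0) of the 42 replication genes, of 15 erythroid markers and of 7 muscle precursor markers in each of the 14 libraries; each bar is 1 library, coloured by group. In the replication genes all 5 AIA CD105+ libraries lie above all 9 CD200+ libraries, at 11819 to 19461 against 835 to 2297 CPM.

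Differences were tested with edgeR's quasi-likelihood test over 15015 genes in 1 fit of all libraries, with Benjamini-Hochberg adjusted p under 0.05 as the threshold. All 42 genes were among those tested. The filter on low counts did not depend on the AIA CD105+ group for most of them, since 40 of 42 would pass on the 9 CD200+ libraries alone, all but Mcm10 and Chaf1a. Between AIA CD105+ and AIA CD200+ cells, 19 of 42 genes (45.2%) rose and none fell, where 4.79% of all tested genes rose and 6.48% fell. Against NI CD200+ cells, a contrast in which disease and cell phenotype differ together, 25 of 42 (59.5%) rose and none fell, where 5.57% of all tested genes rose and 7.63% fell. Both contrasts share the AIA CD105+ libraries. The median log2 difference of the 42 genes was 3.71 over AIA CD200+ cells (range 1.11 to 5.40) and 4.15 over NI CD200+ cells (range 1.95 to 10.01), beside medians of -0.05 and -0.24 over all genes tested. The top of the latter range is Chaf1a, whose NI CD200+ level rests on 7 counts in 1 library, so its size is not precise. Groups did not overlap in 40 of 42 genes in each contrast, where 10.4% and 12.5% of all tested genes lay higher without overlap. With library sizes taken from the spike-ins, 12 of the 42 genes rose in each contrast and none fell, while the calls over all genes turned from 719 higher and 973 lower to 412 and 158 in the first, and from 836 and 1146 to 163 and 109 in the second. Without library 12, 13 or 14 the first count of called genes was 12 each time, and the second was 14 to 16 without library 1, 3, 10, 13 or 14. In those fits 3.22% to 3.77% of all tested genes rose in the first contrast, and 3.72% to 4.16% in the second.

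**Figure D2:**
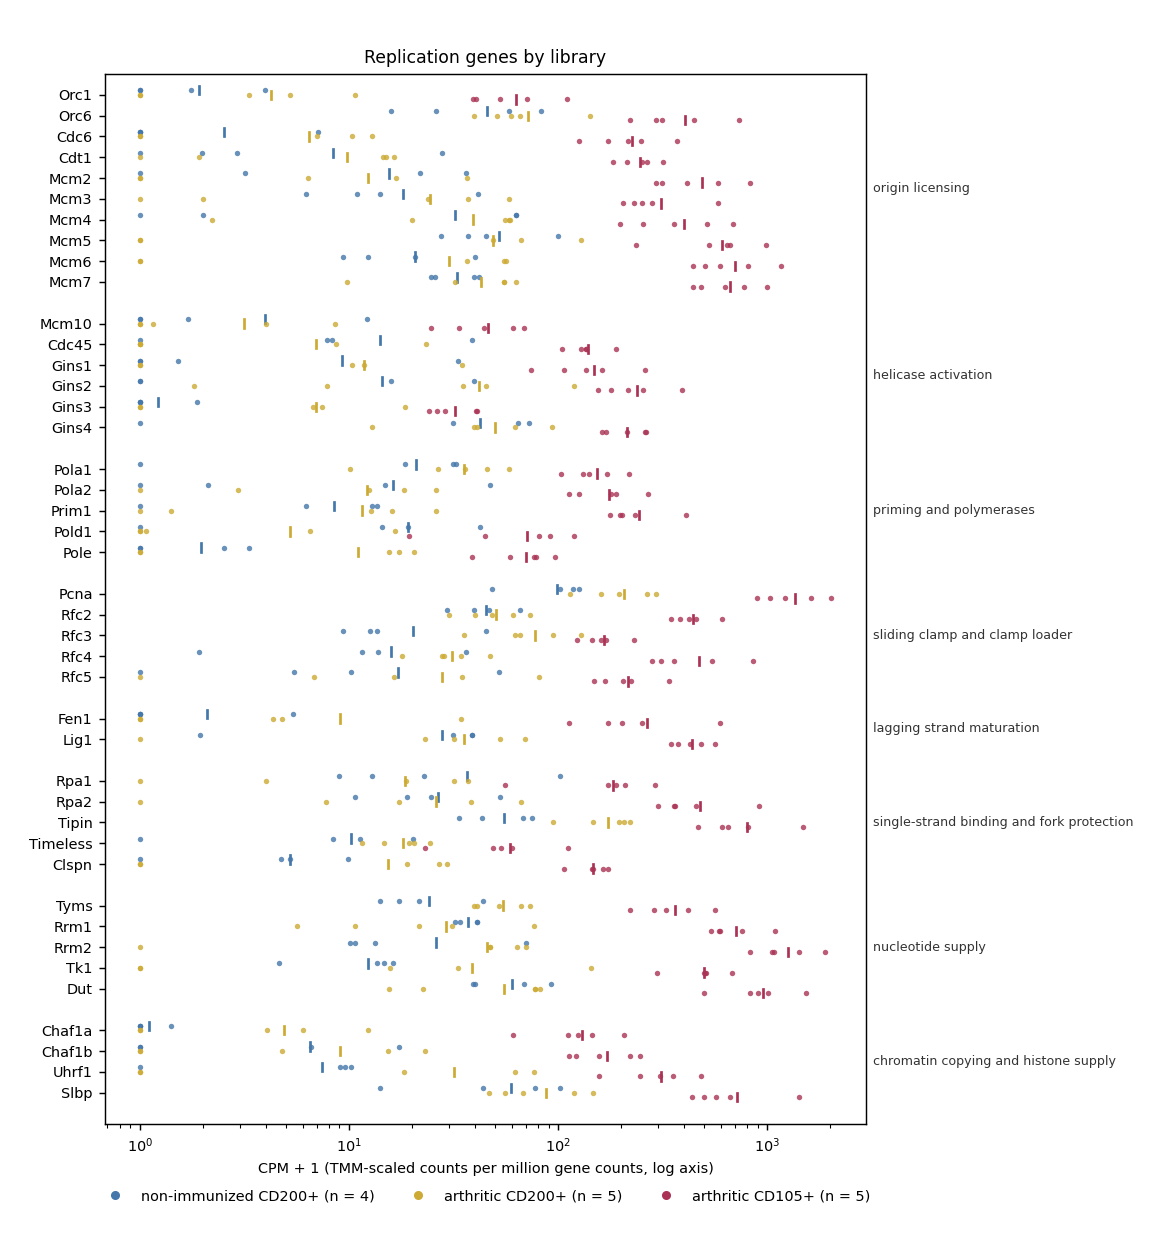
Level of each of the 42 genes in each library (CPM + 1, log axis), ordered by role; points are single libraries, coloured by group. In 40 of the 42 genes all 5 AIA CD105+ libraries lie above all 5 AIA CD200+ libraries; Rfc3 and Timeless are the exceptions.

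Of 10 licensing genes, 6 rose in AIA CD105+ over AIA CD200+ cells (Mcm7, Orc6, Mcm6, Mcm2, Cdt1 and Mcm3) and 7 rose over NI CD200+ cells (Mcm7, Orc6, Mcm6, Cdc6, Mcm3, Orc1 and Cdt1). Their summed level was 4094 ± 1326 CPM (SD, n = 5) in AIA CD105+, 279 ± 139 CPM (n = 5) in AIA CD200+ and 220.0 ± 59.0 CPM (n = 4) in NI CD200+ cells. Mcm7 (ENSMUSG00000029730, chr5:138164583-138172422, GRCm38), a helicase subunit, measured 23.6, 38.5, 24.8 and 40.7 CPM in NI CD200+ libraries. It measured 31.2, 8.79, 53.8, 53.8 and 61.5 CPM in AIA CD200+ libraries. It measured 482, 439, 994, 769.7 and 628 CPM in AIA CD105+ libraries. Every AIA CD105+ value was far above the highest CD200+ value, and the log2 difference from AIA CD200+ cells was 3.98 ± 0.47 (SE, adjusted p = 2.096e-04) by the quasi-likelihood test of edgeR, Benjamini-Hochberg adjusted, as are all adjusted p-values below unless another tool is named. Over NI CD200+ cells it was 4.38 ± 0.53 (SE, adjusted p = 3.012e-04).

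Mcm6 (ENSMUSG00000026355, chr1:128331590-128359664), another subunit of the ring, measured 8.39, 38.9, 11.3 and 19.7 CPM in NI CD200+ and 0, 0, 55.2, 35.5 and 53.8 CPM in AIA CD200+ libraries. It measured 438, 504, 1157, 595 and 803 CPM in AIA CD105+ libraries, where library 12 was the highest. The 0 values of Mcm6 lay in libraries 5 and 6, the ones with the fewest gene counts, and no CD200+ value reached the lowest AIA CD105+ value. Mcm2 averaged 14.6 ± 16.7, 11.3 ± 15.0 and 484 ± 220.3 CPM in the 3 groups, in the order NI CD200+ (n = 4), AIA CD200+ (n = 5) and AIA CD105+ (n = 5), which is kept for all triplets of means ± SD that follow. Its log2 difference between the arthritic populations, 5.40 ± 1.54 (SE, adjusted p = 0.0381), was the largest of the 42 genes. Mcm3, another ring subunit, averaged 17.1 ± 15.7, 23.5 ± 24.3 and 308 ± 154 CPM. Mcm4 and Mcm5 did not pass the threshold between the arthritic populations, at 3.40 ± 1.26 (SE, adjusted p = 0.0961) and 3.66 ± 1.27 (SE, adjusted p = 0.0791), although the AIA CD105+ libraries lay above all AIA CD200+ libraries. Mcm5 measured 0, 0, 47.7, 127 and 65.5 CPM in AIA CD200+ libraries, a spread from none to over 100 CPM within 1 group.

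Orc6 (ENSMUSG00000031697, chr8:85299632-85308278), the smallest subunit of the origin recognition complex, was counted in every library. It measured 56.9, 81.7, 25.0 and 14.8 CPM in NI CD200+, 140.3, 50.0, 38.6, 64.4 and 58.7 CPM in AIA CD200+ and 732, 293, 220.0, 314 and 443 CPM in AIA CD105+ libraries. Library 5 was the highest CD200+ library and library 12 the lowest AIA CD105+ library, and the ranges did not touch. The log2 difference between the arthritic populations was 2.51 ± 0.52 (SE, adjusted p = 0.00869). Its partner Orc1, which varies through the cycle and opens the complex for DNA, was far lower, at 0.927 ± 1.40, 3.24 ± 4.00 and 61.5 ± 29.2 CPM. Cdc6, the loader that brings the helicase to origins, had no count in 3 of 4 NI CD200+ libraries and measured 0, 6.07, 0, 9.38 and 11.8 CPM in AIA CD200+ libraries. In AIA CD105+ libraries it measured 214, 173, 367, 124 and 247 CPM, a log2 difference of 5.36 ± 1.74 (SE) that missed the threshold (adjusted p = 0.0617) against AIA CD200+ cells and passed it against NI CD200+ cells at 7.15 ± 2.09 (SE, adjusted p = 0.0383). Cdt1, which works with Cdc6 and is destroyed once S phase starts, averaged 7.42 ± 12.9, 8.75 ± 7.61 and 245 ± 51.2 CPM.

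The 6 helicase activation genes were higher in AIA CD105+ cells, but none passed the threshold against AIA CD200+ cells and 1 (Gins3) passed it against NI CD200+ cells. Cdc45, which joins the ring to form the active helicase, averaged 13.0 ± 16.9, 5.98 ± 9.67 and 138 ± 30.5 CPM, with no count in 3 of 5 AIA CD200+ libraries. Mcm10, which binds the activated helicase, averaged 2.96 ± 5.47, 2.15 ± 3.30 and 45.3 ± 18.2 CPM. The GINS complex is built from 4 different subunits, and they did not have like levels. Gins4 averaged 41.2 ± 32.7, 48.8 ± 30.0 and 212 ± 47.0 CPM, while Gins3 averaged 0.217 ± 0.434, 5.92 ± 7.14 and 31.1 ± 7.95 CPM. Gins3 was counted in only 1 of 4 NI CD200+ libraries, so its log2 difference of 7.03 ± 2.14 (SE, adjusted p = 0.0452) from that group rests on very few molecules. Gins1 and Gins2 averaged 147 and 238 CPM in AIA CD105+ cells. Of the Gins2 exon bases, 67.3% also lie in exons of Gse1 on the opposite strand, so their reads cannot be told apart without a stated strand setting.

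Of the 5 genes for priming and polymerases, Prim1 alone passed the threshold in each contrast with AIA CD105+ cells. Prim1, the catalytic primase subunit that writes the RNA primer, measured 11.9, 0, 5.23 and 12.7 CPM in NI CD200+ and 0.403, 0, 25.2, 11.8 and 15.0 CPM in AIA CD200+ libraries. It measured 409, 177, 197, 201 and 230.5 CPM in AIA CD105+ libraries. Library 10 stood well above the other 4, and no CD200+ library reached any of them; the log2 difference between the arthritic populations was 4.52 ± 1.26 (SE, adjusted p = 0.035). Pola1 and Pola2, subunits of the polymerase that extends the primer, averaged 19.8 ± 14.7, 34.3 ± 18.4 and 152 ± 44.0 CPM and 15.3 ± 21.6, 11.2 ± 10.5 and 174 ± 61.5 CPM. Pole, the catalytic subunit of the leading strand polymerase, averaged 0.957 ± 1.15, 10.0 ± 9.34 and 68.8 ± 21.9 CPM. Pold1, the catalytic subunit of the lagging strand polymerase, averaged 18.2 ± 17.2, 4.22 ± 6.75 and 70.1 ± 39.1 CPM, and its AIA CD105+ range overlapped that of NI CD200+ cells.

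Of the 5 clamp and loader genes, 3 rose between the arthritic populations and 4 against NI CD200+ cells. Against AIA CD200+ cells Rfc2, Pcna and Rfc4 rose in AIA CD105+ cells, and against NI CD200+ cells Rfc3 rose as well. Pcna (ENSMUSG00000027342, chr2:132249162-132253314), the ring that tethers polymerases to DNA, was counted in every library. It measured 117, 47.1, 125 and 100.5 CPM in NI CD200+ libraries. It measured 293, 113, 158, 265 and 195 CPM in AIA CD200+ libraries. It measured 2017, 1027, 890.1, 1214 and 1612 CPM in AIA CD105+ libraries. Library 10 was highest and library 12 lowest among the AIA CD105+ libraries. Its log2 difference was 2.72 ± 0.36 (SE, adjusted p = 4.356e-04) from AIA CD200+ cells and 3.79 ± 0.41 (SE, adjusted p = 1.211e-04) from NI CD200+ cells. A Pcna pseudogene, Pcna-ps2, held 8956 counts over all libraries, so part of the reads of this family may have been split between near-identical copies.

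Rfc2 (ENSMUSG00000023104, chr5:134581366-134601805), a subunit of the loader that opens the Pcna ring, had the smallest p of the 42 genes in both contrasts. It measured 45.5, 28.3, 38.6 and 64.4 CPM in NI CD200+, 59.6, 39.1, 29.2, 72.3 and 47.0 CPM in AIA CD200+ and 604, 345, 457, 423 and 379 CPM in AIA CD105+ libraries. The spread within each group was small beside the gap, with log2 differences of 3.16 ± 0.32 (SE, adjusted p = 8.490e-05) and 3.32 ± 0.36 (SE, adjusted p = 1.211e-04). Rfc4 (ENSMUSG00000022881, chr16:23113943-23127737) measured 10.5, 35.3, 12.7 and 0.926 CPM in NI CD200+, 27.4, 26.7, 33.4, 17.0 and 46.1 CPM in AIA CD200+ and 852, 281, 310.2, 541 and 356 CPM in AIA CD105+ libraries. The lowest AIA CD105+ library was still several times the highest CD200+ library, and the log2 difference between the arthritic populations was 3.96 ± 0.71 (SE, adjusted p = 0.00391). Rfc3 differed from its partners, with 11.6, 12.7, 44.0 and 8.39 CPM in NI CD200+, 127, 61.0, 34.6, 93.5 and 65.0 CPM in AIA CD200+ and 230.1, 122, 168, 159 and 144 CPM in AIA CD105+ libraries. The arthritic groups overlapped in Rfc3, whose log2 difference between them, 1.11 ± 0.48 (SE, adjusted p = 0.147), was the smallest of the 42 genes. Rfc5 averaged 16.2 ± 23.5, 27.0 ± 32.3 and 215 ± 74.0 CPM and did not pass the threshold in either contrast.

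Both genes of lagging strand maturation were low in CD200+ cells. Fen1, the nuclease that removes the flap left by the primer, had no count in 3 of 4 NI CD200+ libraries and measured 0, 0, 3.76, 33.4 and 3.33 CPM in AIA CD200+ libraries. It measured 202, 112, 593, 251 and 172 CPM in AIA CD105+ libraries. Library 12 was the highest and library 8 was the only CD200+ library above 5 CPM. The log2 difference missed the threshold against AIA CD200+ cells at 5.02 ± 1.72 (SE, adjusted p = 0.0746) and passed it against NI CD200+ cells at 7.85 ± 2.18 (SE, adjusted p = 0.0304). Of the Fen1 exon bases, 78.8% also lie in exons of Gm10143 on the opposite strand, and without a stated strand setting the reads of the pair cannot be told apart. Lig1, the ligase that seals the lagging strand, averaged 26.7 ± 17.6, 34.6 ± 26.5 and 437 ± 86.6 CPM and rose between the arthritic populations by 3.65 ± 1.03 (SE, adjusted p = 0.0368) on the log2 scale.

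Among the 5 genes of single-strand binding and fork protection, Tipin and Rpa2 rose in both contrasts. Tipin (ENSMUSG00000032397, chr9:64281581-64305424), which with Timeless keeps the fork intact, was counted in every library. It measured 73.7, 42.0, 32.7 and 66.6 CPM in NI CD200+, 194, 205, 145, 218 and 93.3 CPM in AIA CD200+ and 1482, 603, 465, 645 and 808 CPM in AIA CD105+ libraries. The 3 groups did not overlap at any point, in the order NI CD200+, AIA CD200+ and AIA CD105+. Its log2 difference was 2.23 ± 0.37 (SE, adjusted p = 0.00229) between the arthritic populations and 3.90 ± 0.43 (SE, adjusted p = 1.604e-04) from NI CD200+ cells. Timeless, its partner, averaged 9.21 ± 7.95, 17.0 ± 5.01 and 58.1 ± 32.2 CPM, and the arthritic groups overlapped. Rpa2 (ENSMUSG00000028884, chr4:132768332-132778752), a subunit of the complex that coats single-stranded DNA, measured 9.72, 23.6, 17.8 and 51.7 CPM in NI CD200+ and 16.3, 0, 65.6, 37.3 and 6.72 CPM in AIA CD200+ libraries. It measured 914, 298, 457, 362 and 357 CPM in AIA CD105+ libraries. Libraries 10 and 12 were the high ones, and the log2 difference between the arthritic populations was 4.24 ± 1.01 (SE, adjusted p = 0.0167). Rpa1, the largest subunit of that complex, averaged 35.7 ± 44.0, 17.5 ± 16.1 and 182 ± 84.5 CPM. Clspn, an adaptor of the checkpoint kinase Chk1, averaged 4.21 ± 3.65, 14.4 ± 13.7 and 146 ± 25.1 CPM, with the most even AIA CD105+ level of the 42 genes (coefficient of variation 17.2%).

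Nucleotide supply had the largest share of called genes of the 8 roles between the arthritic populations. With 2 to 10 genes per role, such shares are coarse. Its median log2 difference, 4.13, was near that of licensing (4.10) and below that of lagging strand maturation (4.335). Of the 5 nucleotide genes, Rrm1, Rrm2, Tyms and Dut rose over AIA CD200+ cells, and all 5 rose over NI CD200+ cells. Rrm2 (ENSMUSG00000020649, chr12:24708241-24714146), the S phase subunit of ribonucleotide reductase, which makes deoxyribonucleotides, measured 69.0, 12.3, 9.64 and 9.09 CPM in NI CD200+ libraries. It measured 68.9, 0, 46.2, 62.2 and 46.1 CPM in AIA CD200+ libraries. It measured 1888, 828, 1413, 1069 and 1049 CPM in AIA CD105+ libraries. No library of the CD200+ groups reached 70 CPM, and no AIA CD105+ library fell under 800 CPM. The log2 difference between the arthritic populations was 4.80 ± 1.02 (SE, adjusted p = 0.0102). Rrm1 (ENSMUSG00000030978, chr7:102441695-102469771), the large subunit, measured 39.7, 31.3, 39.7 and 32.9 CPM in NI CD200+, 4.63, 9.70, 20.5, 75.9 and 30.0 CPM in AIA CD200+ and 589.9, 536, 1085, 584 and 751 CPM in AIA CD105+ libraries. NI CD200+ values were close together and AIA CD200+ values widely spread, with no overlap with AIA CD105+ cells, and the log2 difference between the arthritic populations was 4.65 ± 0.63 (SE, adjusted p = 5.869e-04).

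Dut (ENSMUSG00000027203, chr2:125247190-125258608), which removes dUTP so that uracil is not built into DNA, measured 67.8, 38.1, 90.9 and 38.9 CPM in NI CD200+, 14.5, 21.5, 76.5, 81.1 and 76.1 CPM in AIA CD200+ and 1526, 821, 496, 896 and 1008 CPM in AIA CD105+ libraries. The CD200+ groups overlapped in part and the AIA CD105+ libraries lay above both, by 4.13 ± 0.54 (SE, adjusted p = 4.286e-04) and 4.01 ± 0.59 (SE, adjusted p = 9.845e-04) on the log2 scale. Tyms (ENSMUSG00000025747, chr5:30058202-30073617), the synthase of thymidylate, measured 42.9, 13.0, 16.3 and 20.6 CPM in NI CD200+, 65.2, 51.2, 39.8, 72.0 and 38.6 CPM in AIA CD200+ and 561, 285, 219, 418 and 327 CPM in AIA CD105+ libraries. Its log2 differences were 2.76 ± 0.39 (SE, adjusted p = 7.474e-04) from AIA CD200+ and 3.96 ± 0.45 (SE, adjusted p = 1.890e-04) from NI CD200+ cells. Tk1, the thymidine kinase of the salvage route, averaged 11.3 ± 5.22, 37.9 ± 60.0 and 495 ± 134 CPM. Its AIA CD200+ mean rested on library 8, at 143 CPM where the other 4 lay between 0 and 32.2 CPM, and its log2 difference of 3.70 ± 1.30 (SE, adjusted p = 0.0812) between the arthritic populations did not pass.

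In the role of chromatin copying and histone supply, Slbp and Chaf1a rose in AIA CD105+ over AIA CD200+ cells, and Uhrf1 also rose over NI CD200+ cells. Slbp (ENSMUSG00000004642, chr5:33634952-33652574), which binds the stem-loop of replication-dependent histone mRNAs, measured 101, 76.3, 42.7 and 13.0 CPM in NI CD200+, 146, 118, 45.6, 54.6 and 67.1 CPM in AIA CD200+ and 1422, 435, 497, 662 and 566 CPM in AIA CD105+ libraries. Library 10 stood far above every other library, and the log2 difference between the arthritic populations was 3.06 ± 0.55 (SE, adjusted p = 0.00414). Chaf1a, the large subunit of the assembly factor that puts histones on new DNA, entered the test only through AIA CD105+ libraries, the group in which it was high. It had no count in 3 of 4 NI CD200+ libraries, and averaged 3.89 ± 4.70 CPM in AIA CD200+ and 128 ± 52.6 CPM in AIA CD105+ cells. Chaf1b, its partner, averaged 5.50 ± 7.72, 8.03 ± 9.79 and 171 ± 60.0 CPM and did not pass in either contrast. Of the Chaf1a exon bases, 52.5% also lie in exons of Ubxn6 on the opposite strand. Uhrf1, which brings the maintenance methyltransferase to new DNA, measured 8.56, 0, 8.00 and 9.20 CPM in NI CD200+, 0, 0, 61.0, 75.5 and 17.3 CPM in AIA CD200+ and 155, 244, 479, 306 and 352 CPM in AIA CD105+ libraries. The shallow libraries 2, 5 and 6 held none, libraries 7 and 8 were the highest of the CD200+ cells, and all lay below the AIA CD105+ range.

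**Figure D3:**
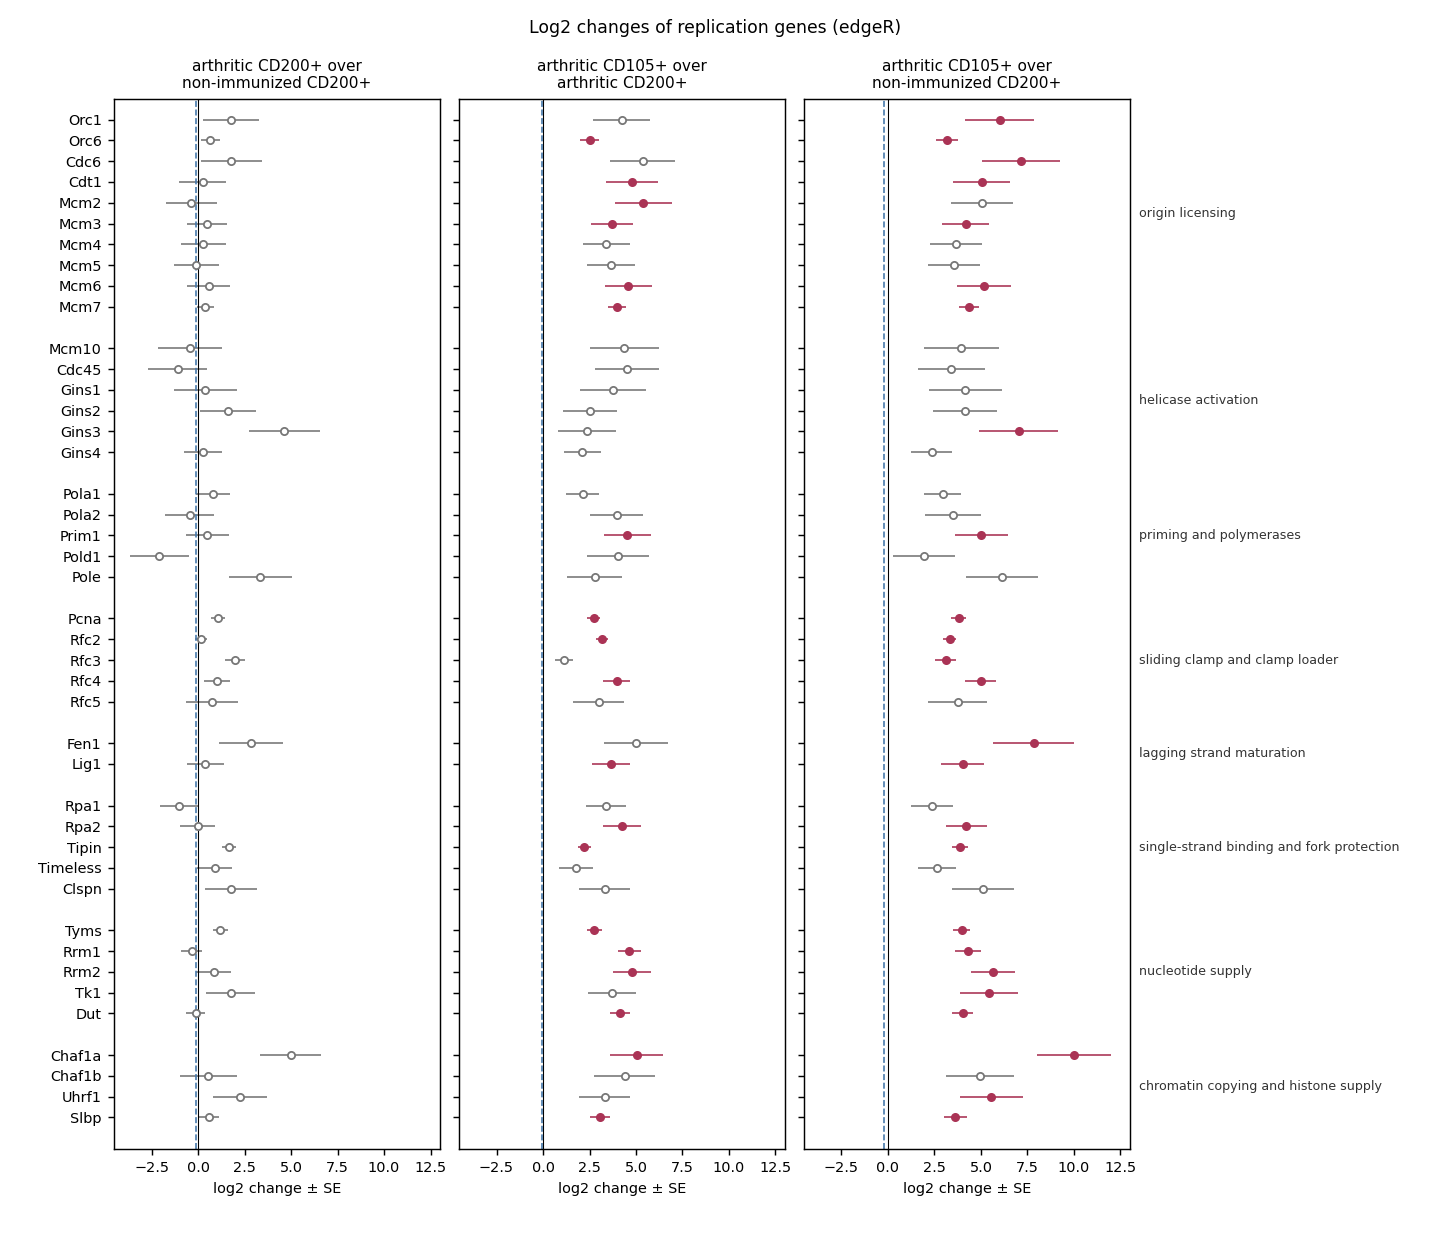
Log2 difference with its SE for each of the 42 genes in the 3 comparisons, ordered by role; filled points passed the adjusted p threshold, and the dashed line is the median over all tested genes. All 42 points lie above 0 in both contrasts with AIA CD105+ cells, and no point passed between AIA CD200+ and NI CD200+ cells.

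Arthritis did not move any of the 42 genes past the threshold within CD200+ cells. Between AIA CD200+ and NI CD200+ cells 0 of 42 genes passed edgeR's adjusted threshold, where 0.0% of all 15015 tested genes rose and the lowest adjusted p of any gene was 0.636. The values leaned upward: 32 of 42 log2 differences were above 0, and their median was 0.57, beside a median of -0.10 over all genes tested. At an unadjusted p under 0.05, 6 genes (14.3%) were higher (Tipin, Rfc3, Chaf1a, Tyms, Pcna and Gins3) and none was lower, where 3.22% of all tested genes were higher. Of these, Chaf1a and Gins3 had no count in 3 of 4 NI CD200+ libraries, and Chaf1a would not pass the filter on CD200+ libraries alone. Tipin had a log2 difference of 1.67 ± 0.39 (SE, adjusted p = 0.636), Rfc3 of 1.99 ± 0.53 (SE, adjusted p = 0.636), Chaf1a of 4.98 ± 1.65 (SE, adjusted p = 0.636) and Tyms of 1.20 ± 0.40 (SE, adjusted p = 0.636). DESeq2 called 2 of the 42 genes higher, Tipin (adjusted p = 0.0269) and Rfc3 (adjusted p = 0.045), where it called 0.717% of all genes with an adjusted p.

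Tipin was also the only gene of the 42 without overlap between NI and AIA CD200+ cells, where 1.11% of all tested genes lay higher without overlap. Its 5 AIA CD200+ values lay between 93.3 and 218 CPM, and its 4 NI CD200+ values between 32.7 and 73.7 CPM. With library sizes from the spike-ins the Tipin ranges overlapped as well. In Pcna 1 AIA CD200+ library (library 6) lay within the NI CD200+ range. When the 3 libraries over 80% spike-ins were left out, an alternative chosen after seeing the data, 9 genes lay higher without overlap (Rfc4, Uhrf1, Pcna, Tipin, Mcm6, Clspn, Mcm3, Mcm7 and Gins3), where 7.72% of all tested genes did. None of the 9 passed the adjusted threshold there, and the 3 AIA CD200+ and 3 NI CD200+ libraries left are few. Genes with lower values in AIA CD200+ cells, such as Pold1 at -2.08 ± 1.60 (SE, adjusted p = 1) and Cdc45 at -1.10 ± 1.59 (SE, adjusted p = 1), had wide errors.

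Detection differed between the populations as well. In AIA CD105+ cells all 42 genes were counted in all 5 libraries, while 19 were counted in every NI CD200+ library and 16 in every AIA CD200+ library. The 42 genes were at 0 in 37 of 168 measurements in NI CD200+, in 44 of 210 in AIA CD200+ and in 0 of 210 in AIA CD105+ libraries. Gene counts were 2919666 to 15371670 in AIA CD200+ and 5968096 to 18553803 in AIA CD105+ libraries. The part of depth in the difference in detection was not tested. Over all genes, 12095 to 17068 had a count in NI CD200+, 9772 to 18208 in AIA CD200+ and 12453 to 17629 in AIA CD105+ libraries. The median coefficient of variation over the 42 genes was 89.5%, 95.2% and 39.2% in these groups. Mean levels above 100 CPM were reached by 0, 2 (Pcna and Tipin) and 36 of the 42 genes. In AIA CD105+ cells the means ran from 31.1 CPM (Gins3) to 1352 CPM (Pcna).

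Levels of different genes were compared per kilobase of exon (CPM per kb, on the union of exons in GENCODE M21). In AIA CD105+ cells the highest means were those of Pcna at 563, Rrm2 at 451, Tipin at 428, Dut at 394 and Rfc4 at 305 CPM per kb. The lowest were Mcm10 at 5.88 and Pole at 6.16 CPM per kb. The SDs over 5 libraries of the leading genes were 192 (Pcna), 149 (Rrm2) and 214 (Tipin), so neighbours in this order do not differ beyond their spread. The subunits of the helicase ring, which stand in equal numbers in the complex, had mean levels within 2.19 times of each other in AIA CD105+ cells, from Mcm2 at 69.5 to Mcm5 at 152 CPM per kb. In NI and AIA CD200+ cells the same ratio was 6.13 and 7.39, again from Mcm2 to Mcm5, at levels where single libraries held none. The 4 GINS subunits ranged over 13.7 times in AIA CD105+ cells, 16.5 times in AIA CD200+ and 382 times in NI CD200+ cells, where Gins3 was counted in 1 library. The loader subunits Rfc2 to Rfc5 ranged over 6.69 times in AIA CD105+, 3.66 times in AIA CD200+ and 2.80 times in NI CD200+ cells. Rrm2 stood 7.00 times above Rrm1 per kilobase in AIA CD105+ cells, 6.31 times in AIA CD200+ and 2.77 times in NI CD200+ cells. These ratios depend on the annotated lengths, 2771 bases for Rrm2 and 11012 for Rrm1, or 6956 for Mcm2 and 3993 for Mcm5. Without that division, Rrm2 averaged 1249.5 CPM and Rrm1 709 CPM in AIA CD105+ cells. Which annotated exons were expressed was not determined.

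Among the AIA CD105+ libraries, the 42 genes did not move up and down as 1 block. The highest of the 5 libraries was library 12 for 20 genes, library 10 for 17 and another library for 5, where these libraries were the highest for 23.6% and 21.2% of all tested genes. The roles divided: 9 of 10 licensing genes were highest in library 12 and 1 (Orc6) in library 10, while all 5 clamp and loader genes were highest in library 10. Pola1, Gins3, Pole, Lig1 and Clspn were highest in libraries 11, 13 or 14. Of the nucleotide genes, 4 of 5 were highest in library 10. Pold1, Mcm5 and Mcm4 had ratios of library 10 over library 12 of 0.157, 0.237 and 0.287, and Gins1, Orc6 and Tipin ratios of 3.55, 3.33 and 3.19. Haemoglobin genes took 18.3% of gene counts in library 10 and 2.71% in library 12. The genes highest in library 10 had a median exon length of 2993 bases against 4673 bases for those highest in library 12, and over all tested genes these medians were 2427 and 4247 bases. The part of transcript length and of haemoglobin RNA in the division by role was not tested, and with 1 library on each side there is no test of the division itself.

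**Figure D4:**
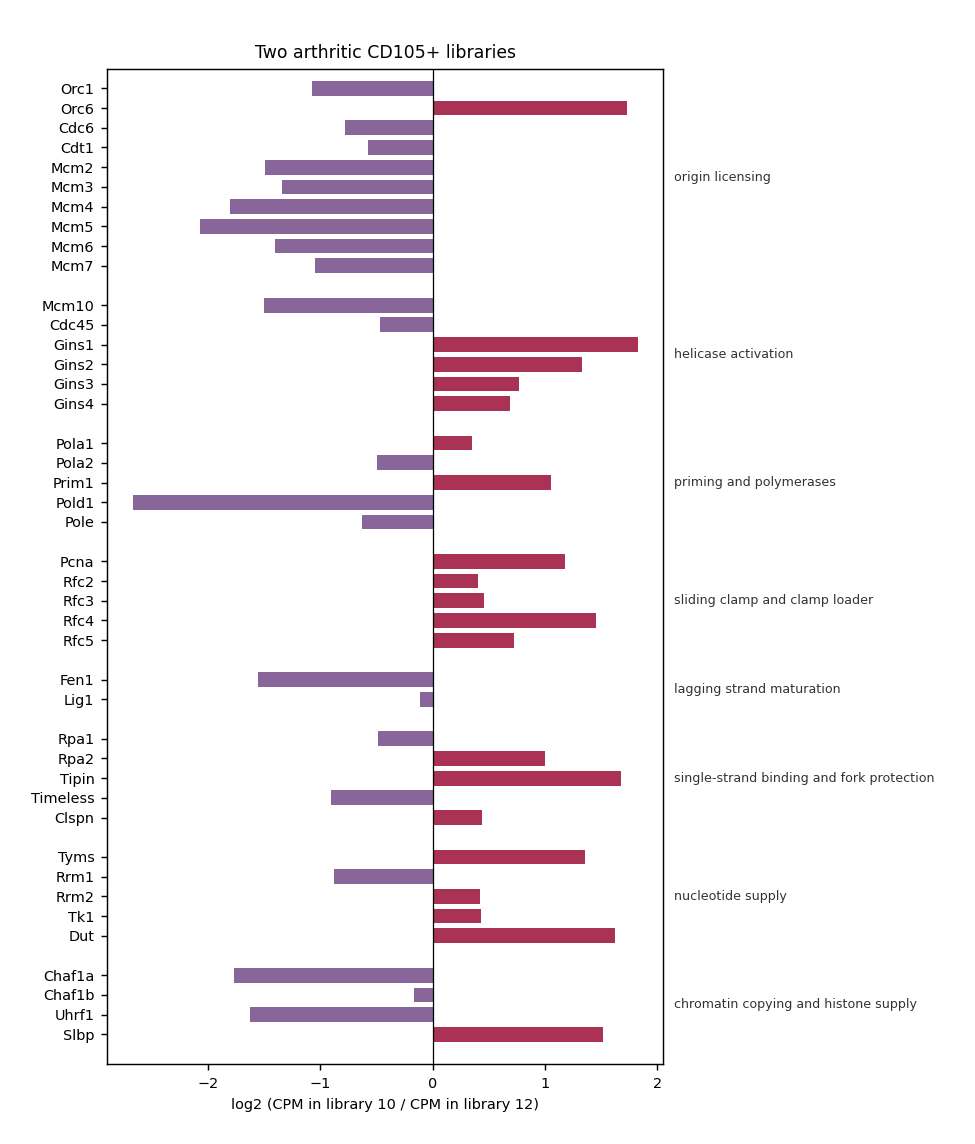
Log2 of the CPM in library 10 over the CPM in library 12 for each of the 42 genes, ordered by role; bars to the right are higher in library 10. Of the licensing genes only Orc6 points right, and all 5 clamp and loader genes point right.

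Of 45 other replication genes, chosen by function, 11 rose and 1 fell between AIA CD105+ and AIA CD200+ cells (median log2 difference 2.26), and 15 rose and 1 fell against NI CD200+ cells (median 2.59). Of all tested genes 4.79% rose and 6.48% fell in the first contrast, and 5.57% and 7.63% in the second. Pole3, a small subunit of the leading strand polymerase, averaged 35.8 ± 14.5, 65.5 ± 26.3 and 261 ± 33.8 CPM and rose by 2.00 ± 0.33 (SE, adjusted p = 0.00236) between the arthritic populations. Dna2, a nuclease and helicase, averaged 15.1 ± 7.04, 0.584 ± 0.889 and 39.6 ± 19.5 CPM and rose by 6.05 ± 1.46 (SE, adjusted p = 0.0175). Rnaseh2c, of the enzyme that cuts RNA in RNA-DNA hybrids, rose by 2.19 ± 0.46 (SE, adjusted p = 0.0092). Pold4, the small accessory subunit of the lagging strand polymerase, was the gene that fell: it averaged 89.1 ± 55.7, 182 ± 79.6 and 16.2 ± 8.02 CPM, a log2 difference of -3.49 ± 0.51 (SE, adjusted p = 0.00105). Pold4 therefore went the opposite way from Pold1, the catalytic subunit of the same polymerase, whose own difference did not pass. None of the 45 passed between the CD200+ groups (median 0.57, the value also found for the 42 genes).

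Of the 31 regulators of S phase entry 30 were tested, and 4 rose and 3 fell between AIA CD105+ and AIA CD200+ cells, with a median of 1.12. The shares of all tested genes were 4.79% higher and 6.48% lower, so 3 falls of 30 are near the background. Ccnd1, the D-type cyclin of the G1 phase, averaged 98.2 ± 109.5, 144 ± 96.6 and 0.554 ± 1.02 CPM and fell, with a log2 difference of -7.92 ± 1.46 (SE, adjusted p = 0.00465). Cdkn1a, the p21 inhibitor of cyclin-dependent kinases, averaged 291 ± 285, 192 ± 108 and 17.9 ± 21.5 CPM and fell, with -3.42 ± 0.81 (SE, adjusted p = 0.0168). The E-type cyclin Ccne2, which acts at the start of S phase, averaged 3.19 ± 3.16, 8.54 ± 6.06 and 164 ± 107 CPM and rose by 4.25 ± 1.02 (SE, adjusted p = 0.0174). E2f4, mainly a repressing E2F, averaged 39.2 ± 40.2, 8.59 ± 8.37 and 159 ± 58.6 CPM and rose by 4.19 ± 1.06 (SE, adjusted p = 0.0219). Against NI CD200+ cells 5 rose and 2 fell (median 1.21), where 5.57% of all tested genes rose and 7.63% fell. None passed between the CD200+ groups, where the median was 0.09.

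Genes of mitosis, which follows S phase, lay higher in AIA CD105+ cells too. Of 25 tested, 4 rose and none fell over AIA CD200+ cells (median 3.93), where 4.79% of all tested genes rose and 6.48% fell. Over NI CD200+ cells 8 rose and none fell (median 5.37), where 5.57% of all tested genes rose and 7.63% fell. With 25 genes, none falling is near the background. Cenpa, the centromere histone, averaged 11.1 ± 8.99, 24.0 ± 20.1 and 459 ± 203 CPM and rose by 4.25 ± 1.17 (SE, adjusted p = 0.0332) between the arthritic populations. Aurka, a spindle kinase, averaged 3.09 ± 4.25, 3.22 ± 3.53 and 156 ± 98.9 CPM and rose by 5.59 ± 1.64 (SE, adjusted p = 0.0425). The spindle checkpoint kinase Ttk had no count in NI CD200+ libraries and averaged 0.311 ± 0.441 CPM in AIA CD200+ and 27.0 ± 6.42 CPM in AIA CD105+ cells. The median between AIA and NI CD200+ cells was 1.43, with no gene past the threshold.

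The sorted AIA CD105+ samples also carried RNA of erythroid genes, and the labelled cell type was checked against its markers. Erythroid marker genes (15 of 16 in the table) summed to 248705, 58455, 29359.6, 73705 and 88671 CPM in libraries 10 to 14. They summed to 1169 to 10179.8 CPM in NI CD200+ and 47.1 to 10389.6 CPM in AIA CD200+ libraries. Between the arthritic populations 11 of 15 tested rose and none fell, where 4.79% of all tested genes rose and 6.48% fell. Gata1, Klf1, Slc4a1, Epor and Epb42 were at 0 in all 5 AIA CD200+ libraries. In AIA CD105+ libraries Gata1, the erythroid transcription factor, averaged 302 ± 105 CPM, Klf1, another, 963 ± 367 CPM, and the erythropoietin receptor Epor 169 ± 59.8 CPM, all in samples sorted as TER119-. Osteoblast genes summed to 44615 to 127851 CPM in NI CD200+, 25087 to 46220 CPM in AIA CD200+ and 88.1 to 1470.3 CPM in AIA CD105+ libraries. Of these 7 of 9 fell between the arthritic populations, where 6.48% of all tested genes fell. Fibroblast genes overlapped between the groups, at 3322 to 6818 CPM in NI CD200+, 664 to 7775 CPM in AIA CD200+ and 2050 to 8633 CPM in AIA CD105+ libraries. Of 7 fibroblast genes tested, 0 passed the threshold between the arthritic populations. Muscle precursor genes summed to 372 to 1547 CPM in NI CD200+, 851 to 1872 CPM in AIA CD200+ and 0 to 11.3 CPM in AIA CD105+ libraries, where Pax7, Myf5, Cdh15 and Myog were at 0 throughout. Macrophage genes summed to 4851 CPM in library 11 and to at most 259.9 CPM in the CD200+ libraries. Neutrophil genes summed to 6979 CPM in library 3, 1995 CPM in library 4 and 1034 CPM in library 11. Genes of B and plasma cells summed to 6738 CPM in library 3. White-cell RNA was thus counted in NI CD200+ libraries too. The part of the osteoblast, fibroblast, muscle and white-cell markers in the difference of the replication genes was not tested either.

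The promoters of the 42 genes were read for letters that E2F factors and the CCAAT-binding factor NF-Y are known to bind. RefSeq promoter windows (build GRCm38.p6, 250 bases before to 50 bases after a start, 300 bases in all) matched 35 of the 42 genes with 40 windows. In 33 of the 40 windows, bases after the start were found in a GENCODE M21 transcript of the gene. Which starts were in use in these cells was not determined. No window was matched for Gins1, Gins2, Gins4, Rfc2, Tipin, Pole and Mcm4. The E2F-type letters searched were TTTCCCGC, TTTCGCGC, TTTGGCGC and TTTGCCGC, and the box was CCAAT, all on both strands. The E2F-type strings share bases where they overlap, as TTTCGCGC and the reverse of TTTGGCGC do in Mcm5. At least 1 E2F-type match lay in 14 of 40 windows (35.0%), beside 744 of all 32851 windows (2.26%). At least 1 CCAAT lay in 60.0% of the windows of the 42 genes and in 37.4% of all windows. The median GC content was 59.2% in the windows of the 42 genes and 52.7% in all windows.

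The 14 genes with E2F-type letters were Orc1, Cdc6, Cdt1, Mcm3, Mcm5, Mcm6 and Mcm7 of licensing, Gins3, Pola1, Pold1, Rfc3, Lig1, Clspn and Uhrf1. Their 20 matches took 18 places after joining overlaps, centred from 181 bases before to 43 bases after the start. The 250 bases before the start are shown for 4 genes, 5′ to 3′ on the gene's own strand, with E2F-type letters and CCAAT (or its reverse ATTGG) in capitals. Mcm5 and Mcm6 are shown as licensing genes with more than 1 E2F-type match. Mcm5 has 2, which share bases in a single run of capitals, and Mcm6 has 3, of which the first 2 share bases. Mcm2 and Rrm2 are shown as genes with none that rose between the arthritic populations.

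Mcm5, chr8:75109259-75109508, plus strand: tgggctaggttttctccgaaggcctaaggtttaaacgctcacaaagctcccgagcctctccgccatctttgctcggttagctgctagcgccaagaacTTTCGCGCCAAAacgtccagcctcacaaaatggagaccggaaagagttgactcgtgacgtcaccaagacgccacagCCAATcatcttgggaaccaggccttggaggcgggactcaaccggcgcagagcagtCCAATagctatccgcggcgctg

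Mcm6, chr1:128359706-128359955, minus strand: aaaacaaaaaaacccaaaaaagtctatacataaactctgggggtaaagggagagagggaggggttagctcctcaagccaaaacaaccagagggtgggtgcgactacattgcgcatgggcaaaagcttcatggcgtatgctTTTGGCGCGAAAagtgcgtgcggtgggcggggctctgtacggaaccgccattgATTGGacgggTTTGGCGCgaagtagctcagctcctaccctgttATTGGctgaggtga

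Mcm2, chr6:88898781-88899030, minus strand: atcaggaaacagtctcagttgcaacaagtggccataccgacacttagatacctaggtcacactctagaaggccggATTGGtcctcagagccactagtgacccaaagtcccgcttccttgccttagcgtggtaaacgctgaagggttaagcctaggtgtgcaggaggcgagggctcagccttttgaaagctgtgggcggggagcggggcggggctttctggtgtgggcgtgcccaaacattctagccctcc

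Rrm2, chr12:24708004-24708253, plus strand: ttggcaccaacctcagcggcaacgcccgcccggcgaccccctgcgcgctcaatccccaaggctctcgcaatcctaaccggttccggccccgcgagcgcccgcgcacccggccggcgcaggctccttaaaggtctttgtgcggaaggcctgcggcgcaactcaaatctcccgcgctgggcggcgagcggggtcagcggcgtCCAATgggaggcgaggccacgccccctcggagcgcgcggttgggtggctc

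In Mcm6, which has 3 E2F-type matches and 2 boxes before the start, the AIA CD105+ level was 699 ± 291 CPM, and in Rrm2, with no such match and 1 box, it was 1249.5 ± 414 CPM. Both genes rose between the arthritic populations. Of the 14 genes with E2F-type letters, 5 rose between the arthritic populations, with a median log2 difference of 3.68, and of the 21 whose windows held none, 12 rose, with a median of 4.13. Against NI CD200+ cells 10 of 14 and 13 of 21 rose. Among the related lists, E2F-type letters lay in 22.9% of windows of other replication genes, 33.3% of windows of S phase regulators and 4.35% of windows of mitosis genes, and CCAAT in 41.7%, 40.0% and 82.6%. A match is a run of letters in a window and not a bound site, and windows without a match may hold other forms of either motif.

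**Figure D5:**
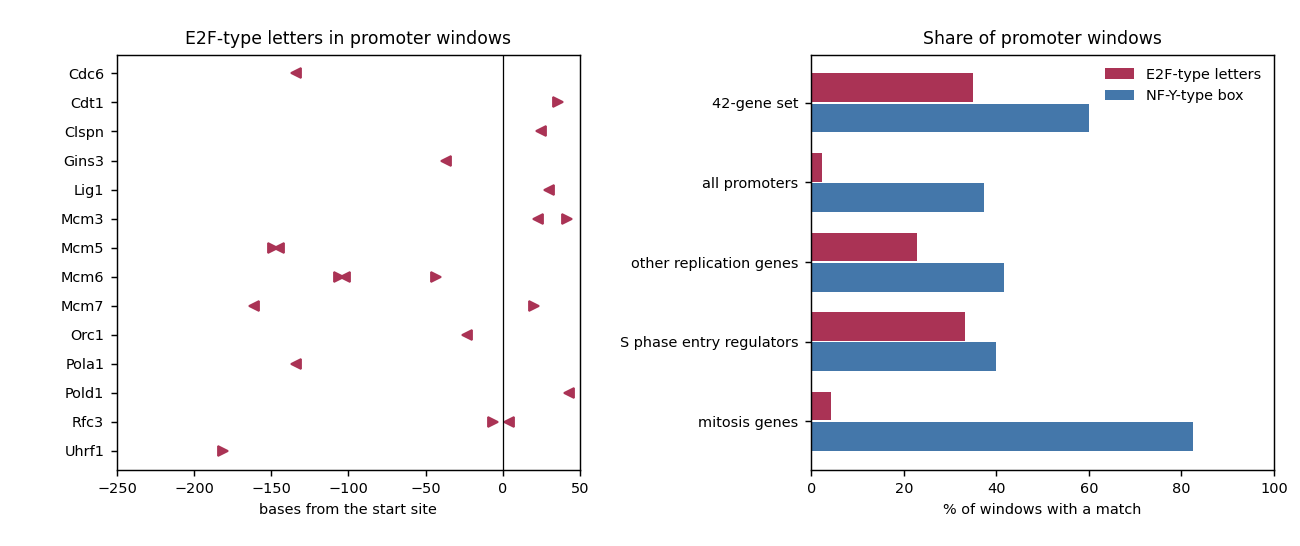
Left, places of E2F-type letters in the promoter windows of 14 replication genes, as distance in bases from the annotated start (0), with triangles pointing in the direction of the match; right, percent of windows holding E2F-type letters or the NF-Y-type box (CCAAT) in each gene list. E2F-type letters lie in 35.0% of windows of the 42 genes and 2.26% of all windows.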

How the data were processed

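RNA of 14 libraries of sorted synovial cells was read, per the labels' protocols, from SMART-Seq v4 cDNA with ERCC spike-ins and Nextera XT libraries. Tools listed in the submitters' processing notes are HISAT2, StringTie, cutadapt and edgeR, with the builds GRCm38 and mm10; versions and the strand setting of the counting are not given in the sources used here. The authors deposited a count table of whole numbers, per the file headers, with 47729 genes and 92 spike-ins as entries. A further deposited table of 14322 entries holds the same counts, with 0 values differing. No pair of libraries held identical values.

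Symbols, positions and exon lengths came from GENCODE M21 (GRCm38), which left 505 genes without a symbol. Library sizes were gene counts without spike-ins. In R 4.3.3, edgeR 4.0.16 kept 15015 genes (filterByExpr, minimum count 10), scaled them by TMM and fitted all libraries in 1 model of 3 groups with the robust option (common coefficient of biological variation 1.28). Tests were two-sided quasi-likelihood tests with Benjamini-Hochberg adjustment over all genes tested and a threshold of 0.05. An SE is the absolute log2 difference divided by the square root of F. With 0.162 to 1.03 CPM for 3 counts, low genes carry large counting error. The fit was checked on simulated counts in which a few genes were raised in AIA CD105+ over AIA CD200+ cells. It called 0 of 49 genes raised by a log2 of 1, 3 of 49 at 2, 7 of 47 at 3 and 13 of 50 at 5. Of 14014 unchanged genes it called 0. Genes that missed the threshold are therefore not shown to be unchanged.

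Statistics were followed for the 12, 6 and 4 genes with the smallest p in AIA CD105+ against AIA CD200+, AIA CD105+ against NI CD200+ and AIA CD200+ against NI CD200+; the largest and smallest values, genes that missed the threshold and other genes given with a p were chosen after their values were seen. Up to 4 genes with the smallest p were taken from each list. The 42 genes and all lists were chosen with earlier results of these data known. Alternatives were other scalings, filters, tools (DESeq2 1.42.0, limma 3.58.1 with voom), fits of 2 groups, and leaving out haemoglobin genes or each library. Motif letters were searched in RefSeq promoter windows; protein sequences were not used here.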

Additional observations from a re-analysis of the deposited data

Results flagged for a closer look

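In groups of 4 or 5 libraries, the highest or lowest library was compared with its nearest neighbour for each of the 42 genes and their sum. A gap larger than Dixon's 95% critical share of the group's range was found in 19 of 129 groups. The rate of about 1 in 20 by chance holds for normally distributed values. It does not hold for counts near 0, where a group with all other libraries at 0 is always flagged, so no excess over chance is claimed. In NI CD200+ cells 11 genes had such a library. Library 4 stood apart in Cdc6 (6.13 CPM, others 0), Gins1 (32.3 CPM, next 0.521), Gins3 (0.868 CPM, others 0) and Chaf1a (0.405 CPM, others 0). Library 3 stood apart in Cdt1 (26.8 CPM, next 1.91) and Rfc3 (44.0 CPM, next 12.7), and library 1 in Fen1 (4.40 CPM, others 0) and Rrm2 (69.0 CPM, next 12.3). Library 2, which held 85.4% spike-ins, stood apart in Mcm10 (11.2 CPM, next 0.694), Rpa1 (101.2 CPM, next 21.8) and, on the low side, Uhrf1 (0 CPM, next 8.00). In AIA CD200+ cells library 5 was high in Orc6 (140.3 CPM, next 64.4), and library 8 in Fen1 (33.4 CPM, next 3.76) and Tk1 (142.6 CPM, next 32.1). In AIA CD105+ cells library 10 was high in Prim1 (409 CPM, next 230.5), Rpa2 (914 CPM, next 457) and Slbp (1422 CPM, next 662), and library 12 in Mcm3 (579 CPM, next 280.2) and Fen1 (593 CPM, next 250.7). The causes were not tested.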

How the results depend on the processing

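The direction of each of the 22 followed values held under every alternative run; 547 of their alternative values kept their side of the threshold and 2 gained a call, Tipin and Rfc3 between AIA and NI CD200+ cells under DESeq2. For AIA CD200+ against NI CD200+ cells, DESeq2 called 2 of the 42 genes where edgeR called 0, also with any library left out. The 1 gene without overlap there became 0 with spike-in library sizes, 9 without the 3 libraries over 80% spike-ins, and 1 to 2 with each library left out in turn. For AIA CD105+ against AIA CD200+ cells, the 19 called genes became 31 with DESeq2, 41 with limma voom, 13 without a filter (within 1.5 times) and 12 with spike-in library sizes, and 12 to 23 with a library left out. The share of all genes of the fit called higher moved too, from 4.79% to 5.28% with DESeq2 and 14.1% with limma voom. This share was 1.99% without a filter, 2.71% with spike-in library sizes and 3.22% to 5.16% with a library left out. For AIA CD105+ against NI CD200+ cells, the 25 called genes became 40 with limma voom, 16 without a low-count filter, 12 with spike-in library sizes, and 14 to 29 with a library left out. In this contrast the share of all genes called higher moved from 5.57% to 14.6% with limma voom and 2.12% without a filter. It was 1.07% with spike-in library sizes and 3.72% to 7.44% with a library left out. The median log2 difference of 4.15 there became 3.87 with DESeq2, 3.88 with RLE factors, 4.36 on the genes of the filtered table, 5.34 with limma voom and 5.52 with spike-in library sizes, and 3.97 to 4.31 with a library left out. Spike-in sizes also moved the median of all genes from -0.05 to 1.23 and from -0.24 to 1.23 in the contrasts with AIA CD105+ cells. The causes were not tested. The genes of the filtered table and the removal of the 3 libraries were chosen after seeing the data. No paired analysis was possible because the groups share no library number. Libraries with few gene counts limit what a 0 shows in CD200+ cells.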
